A study of Mus musculus with 4 samples.

Results

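TGFβ signals through a heteromer of type II and type I receptors that phosphorylates SMAD2 and SMAD3, which then move to the nucleus with SMAD4 and act on target genes. Among these targets are inhibitors of the pathway itself, so that a cell receiving TGFβ limits its own signal. Of such genes, 7 were described here. *Smad7*, *Smurf2*, *Pmepa1* and *Ldlrad4* encode proteins that act at the receptor or on receptor-bound SMADs, and *Skil*, *Ski* and *Tgif1* encode co-repressors that act on SMAD complexes in the nucleus. The 7 genes were taken by symbol from a table of 13265 genes, and all 7 were among the 7490 genes with at least 200 corrected UMIs.

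YFP+CD4+ T cells of the small intestine were profiled by droplet-based scRNA-seq. The mice were C57BL/6, 7 to 8 months old and of both sexes. All mice carried *Il17a-cre* and a *Rosa26-stop* fl/fl-*yfp* reporter, so that YFP marks cells that had expressed *Il17a* at some point, and Cre recombines the floxed alleles in such cells. TGFβR-KO mice carried floxed *Tgfbr2* (the type II receptor), TGFβR-CA mice carried a constitutively active *Tgfbr1* (the type I receptor) behind a floxed stop, and TGFβR-WT mice were littermates without these floxed alleles. Each sample was a pool of mice, with 1 sample of TGFβR-KO, 1 of TGFβR-CA and 2 of TGFβR-WT, and the TGFβR-KO and TGFβR-CA samples were sequenced in separate batches, each with TGFβR-WT cells. The deposited cell names tie the TGFβR-WT cells to their genotype but not to 1 of the 2 samples. By the suffix of their names they form a larger set of 709 cells and a smaller set of 298, and both are given throughout beside the 2975 cells labelled TGFβR-KO and the 1098 labelled TGFβR-CA.

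A level is the number of corrected UMIs of a gene per 10000 such UMIs in a set of cells, and a share is the percentage of cells with a value above 0, with an exact Clopper-Pearson 95% interval that covers counting error only. With 1 sample each of TGFβR-KO and TGFβR-CA, and TGFβR-WT cells that could not be tied to their samples, there was no test. A gene was called lower or higher by size alone, when its level differed at least 1.5 times in the same direction from both TGFβR-WT sets. The TGFβR-KO and TGFβR-CA comparisons share their TGFβR-WT cells.

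The 4 sets held 2506375, 1213190, 11479720 and 4382832 corrected UMIs in the larger TGFβR-WT, the smaller TGFβR-WT, the TGFβR-KO and the TGFβR-CA cells, with medians of 3440 to 3984.5 per cell. Genes of CD4 T cells summed to levels of 95.2 to 115 in every set, those of epithelial cells to 0.196 to 0.301 and those of CD8 T cells to 0.0199 to 0.0453. Of 4 γδ T cell genes 3 were at 0, and the list summed to 0.0157 in TGFβR-KO and up to 0.181 in the smaller TGFβR-WT set. Genes of B and plasma cells summed to 1.34 to 2.75 and those of myeloid cells to 1.89 to 2.22, so RNA of other lineages was present. *Tgfbr2* itself had a level of 1.48 in cells labelled TGFβR-KO, against 1.72 and 1.76 in the larger and smaller TGFβR-WT sets. Whether the 3′ ends that are counted lie in the deleted part of the gene is not given in the sources used here, so this checks nothing about the deletion. *Tgfbr1* had a level of 0.792 in cells labelled TGFβR-CA, between the TGFβR-WT sets, of which the larger had 0.367 and the smaller 2.79. Genotypes therefore follow the cell labels. The 2 TGFβR-WT sets also differed in the feedback genes. *Smad7*, *Skil* and *Ldlrad4* were 1.60, 1.70 and 1.81 times higher in the smaller than in the larger set and *Pmepa1* fell just short of 1.5 times, so that 3 of the 7 genes passed that limit upwards and 0 downwards. Over all genes, 10.2% were at least 1.5 times higher in the smaller set and 11.9% at least 1.5 times lower. The cells labelled TGFβR-KO shared 14 barcodes with the larger set of TGFβR-WT and 1 with TGFβR-CA, and the TGFβR-WT sets shared 1 with each other.

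In GENCODE vM21 (GRCm38), *Skil* lies at chr3:31095058-31122577 on the plus strand. *Ski* lies at chr4:155154075-155222592, *Pmepa1* at chr2:173224458-173276533, *Smurf2* at chr11:106820066-106920715 and *Tgif1* at chr17:70844205-70853546, all on the minus strand.

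RefSeq promoters are shown for 2 members. Promoters were taken for 3 members, *Smurf2*, *Ski* and *Tgif1*, and the source used held none for *Pmepa1* or *Skil*. Of these 3, *Smurf2* and *Ski* were chosen because their level was lower in TGFβR-KO cells, *Smurf2* in every comparable cluster and *Ski* less evenly. The stretches run 5′ to 3′ up to the start of the gene and leave out its transcribed part. Capitals mark AGAC, the SMAD box, and GGCGC and GGCCG, GC-rich letters that SMAD3 and SMAD4 can also bind, each on either strand. GGCGC and its complement overlap in GGCGCC, as GGCCG and its complement do in CGGCCG, and each overlap counts as 2.
Smurf2, chr11:106920716-106920965, minus strand, GRCm38.p6: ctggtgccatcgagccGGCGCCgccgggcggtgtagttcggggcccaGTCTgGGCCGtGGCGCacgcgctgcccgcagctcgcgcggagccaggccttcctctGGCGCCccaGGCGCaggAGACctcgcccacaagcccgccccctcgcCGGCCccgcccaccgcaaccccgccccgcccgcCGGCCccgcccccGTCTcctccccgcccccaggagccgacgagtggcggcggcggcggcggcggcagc
Ski, chr4:155222593-155222785, minus strand, GRCm38.p6: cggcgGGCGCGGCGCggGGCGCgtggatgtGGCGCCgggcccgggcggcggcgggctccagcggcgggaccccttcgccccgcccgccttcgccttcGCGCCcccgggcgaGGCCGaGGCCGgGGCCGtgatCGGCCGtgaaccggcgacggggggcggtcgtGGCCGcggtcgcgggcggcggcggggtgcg
The 250 bases of *Smurf2* held AGAC at 3 places, GGCGC at 6 and GGCCG at 3. Of all 32851 promoters, 82.9% held AGAC, 32.0% GGCGC and 30.4% GGCCG within 250 bases. The end of the *Smurf2* stretch overlaps a predicted miRNA gene, *Gm27322*, in GENCODE. The 193 bases of *Ski* held AGAC nowhere, GGCGC at 6 places and GGCCG at 6. Over the same length, 75.6%, 24.8% and 23.7% of all promoters held AGAC, GGCGC and GGCCG at any place. These shares are no reference for a number of places, and promoters were not matched on base composition. Of the 5 *Tgif1* promoters, 4 held AGAC. All marked places are matches of letters and not mapped binding sites.

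In TGFβR-KO cells, 5 of the 7 genes were called lower than in TGFβR-WT cells and 0 were called higher, where 5.43% of all genes were called lower and 2.94% higher. *Pmepa1*, *Ldlrad4*, *Skil* and *Smurf2* were lower by 2.40 to 7.43 times against the nearer TGFβR-WT set, and *Ski* lay just past the limit. Ranked by the ratio to the nearer set, *Pmepa1* was the 5th lowest of 7467 genes above 0 in both TGFβR-WT sets, *Ldlrad4* the 15th, *Skil* the 41st and *Smurf2* the 69th. The median log2 ratio of TGFβR-KO to pooled TGFβR-WT cells was -1.31 over the 7 genes and -0.17 over all genes. In TGFβR-CA cells 0 of the 7 genes were called lower and 0 higher, with 2.75% and 1.26% of all genes called, and the median log2 ratio was -0.11 over the 7 genes and -0.11 over all genes.

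**Figure D1:**
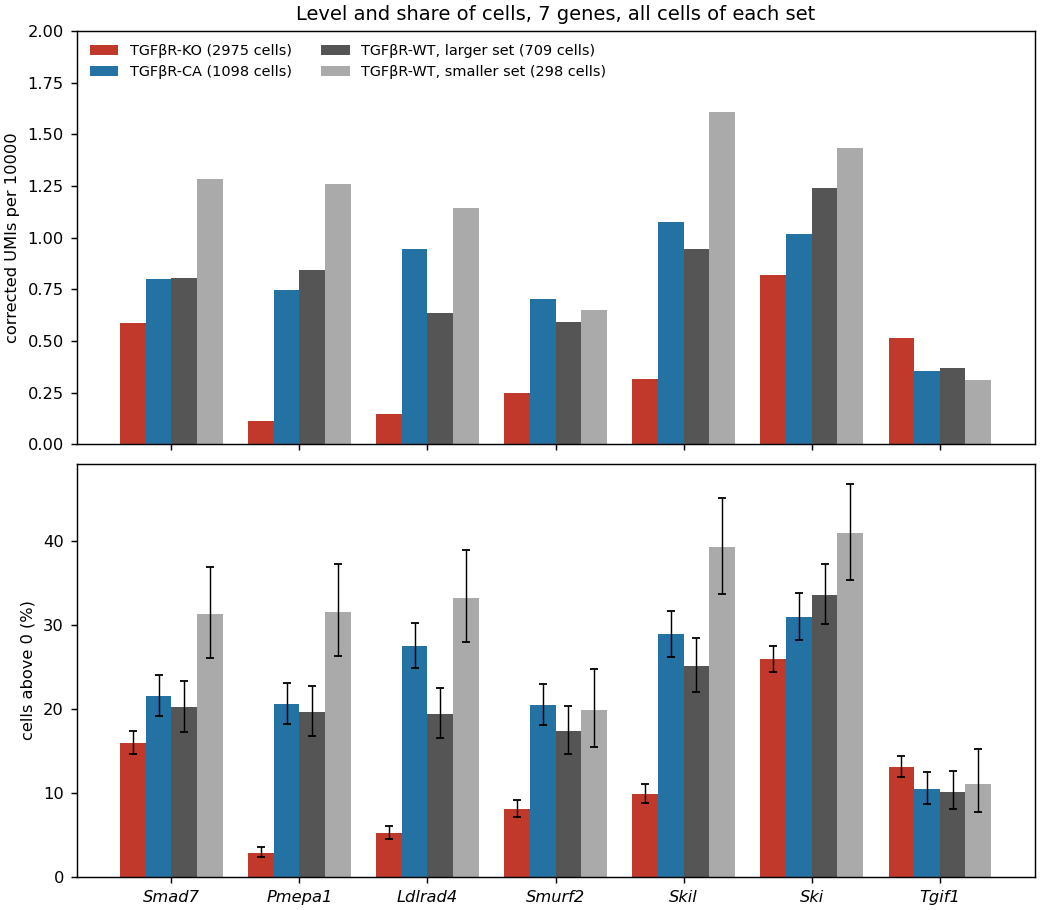
Level in corrected UMIs per 10000 (top) and percentage of cells above 0 (bottom, with exact 95% Clopper-Pearson intervals for counting error) of the 7 genes in all cells of each set, receptor-level inhibitors to the left and nuclear co-repressors to the right of the x axis. The TGFβR-KO bars of *Pmepa1*, *Ldlrad4*, *Skil* and *Smurf2* are the lowest of their groups, 0.113 to 0.314 in level, while *Tgif1* is the only gene with its highest bar in TGFβR-KO.

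**Figure D2:**
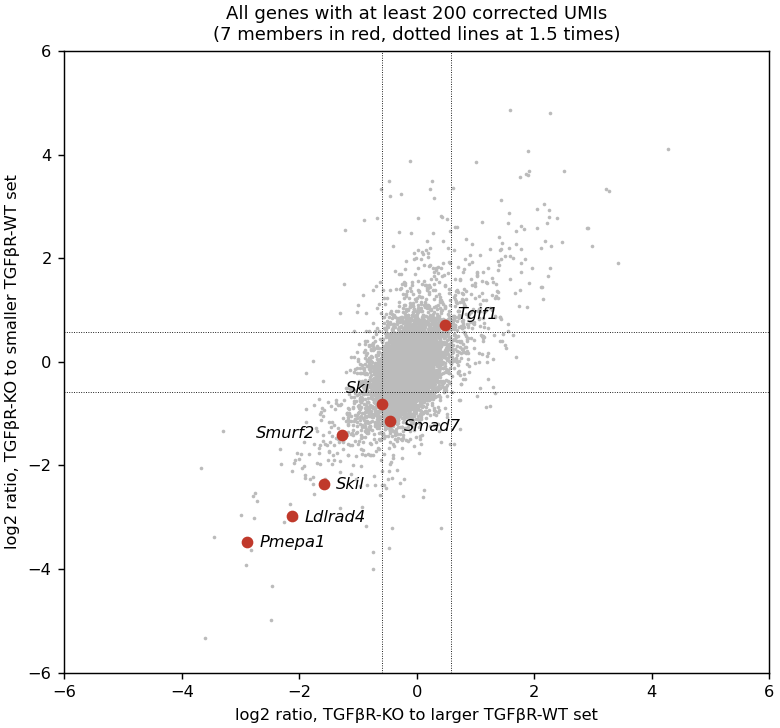
Log2 ratio of the level in TGFβR-KO cells to that in the larger (x axis) and the smaller (y axis) TGFβR-WT set, 1 point per gene with at least 200 corrected UMIs and a level above 0 in all 3 sets, the 7 feedback genes in red, and dotted lines at 1.5 times. *Pmepa1*, *Ldlrad4*, *Skil*, *Smurf2* and *Ski* lie in the lower left field that holds 5.43% of genes, *Smad7* passes only the line for the smaller set, and *Tgif1* lies on the opposite side.

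Among the inhibitors that act at the receptor, *Pmepa1* differed most. It encodes a membrane protein that holds SMAD2 and SMAD3 away from the type I receptor. Its level was 0.113 in TGFβR-KO cells, 0.746 in TGFβR-CA cells, and 0.842 and 1.26 in the larger and smaller TGFβR-WT sets. The TGFβR-KO level was 7.43 and 11.1 times lower than in the larger and smaller TGFβR-WT sets. The share of cells with *Pmepa1* was 2.89% in TGFβR-KO (86 cells, 95% interval 2.32 to 3.56), 20.6% in TGFβR-CA, and 19.6% and 31.5% in the larger and smaller TGFβR-WT sets. All sets consist of CD4 T cells, so the share that free RNA alone would give was not measured.

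*Ldlrad4*, a relative of *Pmepa1* with the same SMAD-binding action, followed the same order between TGFβR-KO and the other sets. Its level was 0.145 in TGFβR-KO, 0.947 in TGFβR-CA, 0.634 in the larger and 1.15 in the smaller TGFβR-WT set. In TGFβR-KO cells it was 4.36 and 7.88 times lower than in the larger and smaller sets. It was detected in 5.24% of TGFβR-KO cells against 19.3% and 33.2% of the TGFβR-WT sets and 27.5% of TGFβR-CA cells. The level in TGFβR-CA lay between those of the TGFβR-WT sets.

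*Smurf2* encodes a ubiquitin ligase that is brought to the receptor by SMAD7 and marks it for degradation. Its level was 0.246 in TGFβR-KO, 0.703 in TGFβR-CA, 0.590 in the larger and 0.651 in the smaller TGFβR-WT set. It was the receptor-level gene on which the 2 TGFβR-WT sets came closest, and TGFβR-KO was 2.40 and 2.65 times lower. Its share was 8.10% of cells in TGFβR-KO and 17.3% to 20.4% in the other 3 sets.

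*Smad7*, the inhibitory SMAD that binds the active type I receptor, was not called over all cells. Its level was 0.586 in TGFβR-KO, 0.801 in TGFβR-CA, 0.806 in the larger and 1.29 in the smaller TGFβR-WT set. TGFβR-KO was the lowest of the sets, 1.37 and 2.19 times below the larger and smaller TGFβR-WT sets. Its share was 16.0% in TGFβR-KO, 21.5% in TGFβR-CA, 20.2% in the larger set and 31.2% in the smaller set.

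Among the nuclear co-repressors, *Skil*, which encodes SnoN, differed most. Its level was 0.314 in TGFβR-KO, 1.07 in TGFβR-CA, 0.946 in the larger and 1.61 in the smaller TGFβR-WT set. TGFβR-KO was 3.01 and 5.11 times lower than the larger and smaller sets. *Skil* was detected in 9.88% of TGFβR-KO cells against 25.1% and 39.3% of the larger and smaller TGFβR-WT sets and 28.9% of TGFβR-CA cells.

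*Ski*, the paralogue of *Skil*, likewise binds SMADs and recruits co-repressors. Its level was 0.821 in TGFβR-KO, 1.02 in TGFβR-CA, 1.24 in the larger and 1.43 in the smaller TGFβR-WT set. The differences of 1.51 and 1.75 times placed it barely past the limit of 1.5, and by the share of cells (25.9% against 33.6% and 40.9%) it was not past it.

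*Tgif1*, a homeodomain protein that recruits co-repressors to SMAD2, went the other way over all cells. Its level was 0.515 in TGFβR-KO, 0.356 in TGFβR-CA, 0.371 in the larger and 0.313 in the smaller TGFβR-WT set. TGFβR-KO was 1.39 and 1.64 times higher than the larger and smaller sets, which is not past the limit against the larger set. Its share was 13.1% in TGFβR-KO and 10.2% to 11.1% in the other sets.

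To set the shares at 1 total of corrected UMIs, the share expected with every cell thinned to 2955 of them, the lowest total of any cell, was computed. This evens out the corrected totals only, because the original sequencing depth of a cell is lost. The thinned share of *Pmepa1* was 2.38% in TGFβR-KO against 17.2% and 25.4% in the larger and smaller TGFβR-WT sets. For *Ldlrad4* it was 4.06% against 16.2% and 26.0%, and for *Skil* 7.74% against 21.4% and 31.6%. That of *Tgif1* was 10.7% against 8.75% and 7.90%.

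The genotypes differed in how their cells fell over the authors' 8 clusters, so the genes were followed within clusters. Of TGFβR-KO cells, 12.1% were in cluster 1 (tumorigenic), 10.8% in cluster 2 (CTL) and 27.9% in cluster 6 (migratory), while the TR-TFH cluster held 17.4% of TGFβR-KO cells and 46.1%, 44.6% and 50.6% of the larger TGFβR-WT, the smaller TGFβR-WT and the TGFβR-CA cells. The GC-TFH, TR-TFH, activated and pre-tumorigenic clusters had at least 20 cells in every set and were compared. The authors' clustering could have used these genes.

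Within clusters, 24 of the 28 pairs of gene and cluster were called lower in TGFβR-KO and 1 was called higher. Over all genes, 8.71% of such pairs were called lower and 4.91% higher. *Smad7*, *Pmepa1*, *Ldlrad4*, *Smurf2* and *Skil* were called lower in all 4 clusters, as were 29 of the 7490 genes or 0.387%. These calls are by size, without regard to counting intervals, and some rest on few UMIs. *Ski* and *Tgif1* were each called lower in 2 clusters. In TGFβR-CA, 2 of the 28 pairs were called lower and 2 higher, with 7.7% and 5.18% over all genes, and 0 of the 7 genes were called lower in all 4 clusters (0.12% of all genes). The lower pairs were *Smad7* in GC-TFH and *Ski* in activated cells, and the pairs counted as higher were *Ski* and *Tgif1* in the pre-tumorigenic cluster. The *Tgif1* pair counts only because the larger TGFβR-WT set was at 0 there, and with that 0 set at 3 counts it did not pass the limit.

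**Figure D3:**
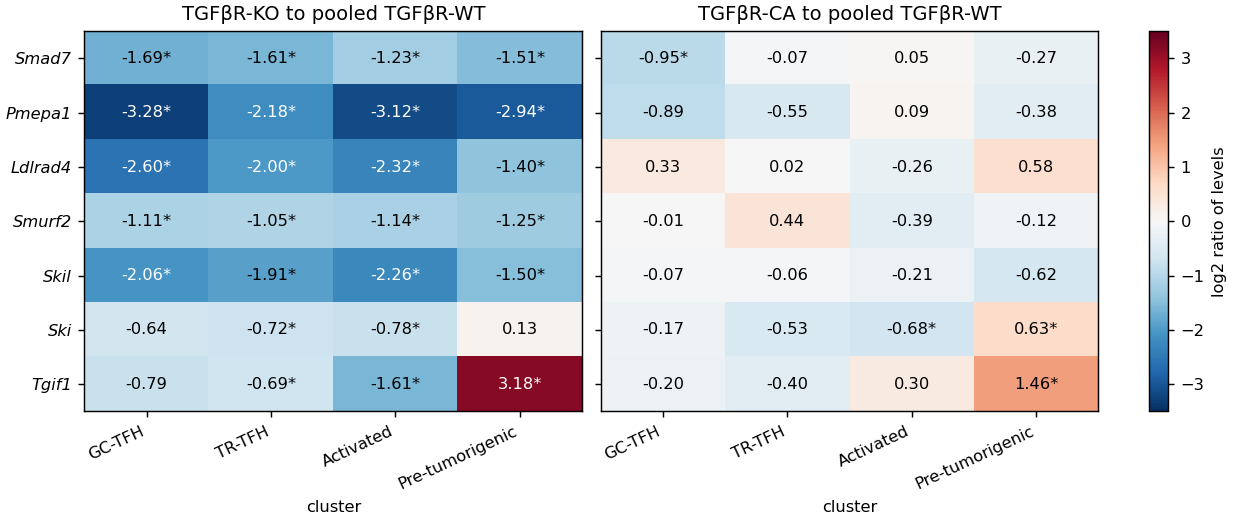
Log2 ratio of the level in TGFβR-KO (left) and TGFβR-CA cells (right) to that in pooled TGFβR-WT cells, by gene (rows) and by cluster with at least 20 cells in every set (columns). An asterisk marks a difference of at least 1.5 times in the same direction from both TGFβR-WT sets, which 24 pairs on the left reach downwards and 1, *Tgif1* in the pre-tumorigenic cluster at 3.18, reaches upwards.

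*Pmepa1* had its lowest ratio to pooled TGFβR-WT cells in GC-TFH cells, and to the smaller set alone in activated cells. In GC-TFH cells it had a level of 0.146 in TGFβR-KO against 1.56 and 1.12 in the larger and smaller TGFβR-WT sets. In activated cells it was 0.196 against 1.40 and 2.52, and in TR-TFH cells 0.145 against 0.499 and 0.991. In the pre-tumorigenic cluster the larger TGFβR-WT set had 27 cells and 3 *Pmepa1* UMIs, and the ratio of TGFβR-KO to it was 0.418 with a counting interval of 0.113 to 2.31. Against the 28 UMIs of the smaller set the ratio was 0.0994 (0.0460 to 0.202). *Pmepa1* was thus below both TGFβR-WT sets in each of the 4 clusters, but at the depth of the larger set the difference was not detectable in the pre-tumorigenic one. The same held there for *Ldlrad4*, with 4 UMIs in the larger set and a ratio of 0.471 (0.155 to 1.91), and for *Smurf2*, with 5 UMIs and a ratio of 0.314 (0.108 to 1.10).

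In TGFβR-KO cells alone, *Pmepa1* was nearly missing from the tumorigenic cluster, where 2 of 361 cells had it (0.554%, 0.0672 to 1.99). It was found in 12 of 831 migratory cells (1.44%), in 5 of 230 pre-tumorigenic cells (2.17%) and in 3.66% to 5.03% of CTL, GC-TFH, TR-TFH and activated cells. With 5 and 2 cells in the tumorigenic cluster of TGFβR-WT and TGFβR-CA, no ratio was formed there.

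*Ldlrad4* was 2.64 to 6.05 times lower in TGFβR-KO than in pooled TGFβR-WT cells across the 4 clusters, and *Skil* 2.82 to 4.80 times lower. *Smurf2* was 2.07 to 2.38 times lower than in pooled TGFβR-WT cells, the narrowest span of the 7 genes. Its call in activated cells rests on 6 UMIs in the 29 cells of the smaller TGFβR-WT set. In the activated cluster *Skil* had a level of 0.384 in TGFβR-KO, 1.60 in TGFβR-CA, 1.15 in the larger and 3.66 in the smaller TGFβR-WT set. The TGFβR-WT sets thus stood 3.18 times apart in that cluster, with TGFβR-KO below both.

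The level of *Smad7* varied more between clusters than between genotypes. In TGFβR-WT cells its pooled level was 0.522 in GC-TFH, 0.537 in TR-TFH, 1.80 in activated and 2.49 in pre-tumorigenic cells. In TGFβR-KO cells it was 0.162, 0.176, 0.768 and 0.873 in the same clusters, which is 3.22, 3.05, 2.34 and 2.85 times lower. In the clusters held mostly by TGFβR-KO cells it was 1.06 (tumorigenic), 0.678 (CTL) and 0.646 (migratory). These levels were above the pooled level of TGFβR-WT TR-TFH cells, which is a different cluster. In migratory TGFβR-WT cells *Smad7* was at 1.74 in the larger set (73 cells) and 2.22 in the smaller (16 cells), above the TGFβR-KO level there. With equal weight to the 4 clusters *Smad7* was called lower, at a log2 ratio of -1.43 in place of -0.72 over all cells. With equal weight to 3 clusters of a new clustering made without the members, it was not called, at a log2 ratio of -0.76.

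**Figure D4:**
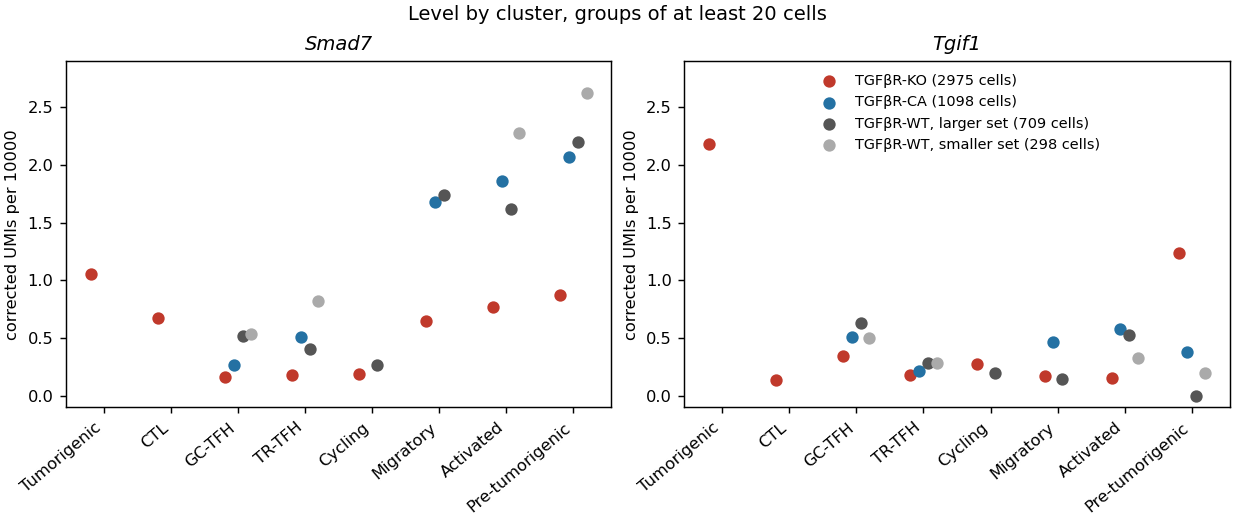
Level of *Smad7* (left) and *Tgif1* (right) in corrected UMIs per 10000 by cluster, 1 point per set, for sets with at least 20 cells in the cluster. *Smad7* is lowest in TGFβR-KO in every cluster where sets can be compared, whereas *Tgif1* reaches 2.18 and 1.24 in the tumorigenic and pre-tumorigenic TGFβR-KO cells and stays at or below 0.341 in the other TGFβR-KO clusters.

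*Tgif1* was unevenly spread over TGFβR-KO cells. Its level was 2.18 in the tumorigenic cluster, where 48.5% of 361 cells had it, and 1.24 in the pre-tumorigenic cluster, where 27.0% of 230 cells had it. In the other TGFβR-KO clusters its level was 0.132 to 0.341. These 2 clusters held 19.9% of TGFβR-KO cells and 70.4% of their *Tgif1* UMIs, against 33.4% for *Smad7*, 28.0% for *Skil* and 11.7% to 18.0% for the other members.

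In the pre-tumorigenic cluster *Tgif1* had 0 UMIs in the 27 cells of the larger TGFβR-WT set, where 3 UMIs would be a level of 0.329, and a level of 0.198 from 4 UMIs in the smaller set. TGFβR-KO was therefore at least 3.77 times higher than the larger set, and 6.26 times higher than the smaller one with a counting interval of 2.38 to 23.4. TGFβR-CA had 12 UMIs and a level of 0.376, which is at least 1.14 times that of the larger set, and a ratio to pooled TGFβR-WT cells of 2.76 with a counting interval of 0.835 to 11.7, so a difference was not detectable at this depth. In activated cells the order was opposite, with *Tgif1* at 0.155 in TGFβR-KO against 0.529 and 0.325. The value of the smaller set came from 4 UMIs in 29 cells. In TR-TFH cells *Tgif1* was at 0.176 against 0.285 and 0.280, the last from 15 UMIs.

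Without the tumorigenic and pre-tumorigenic clusters, 6 of the 7 genes were called lower in TGFβR-KO, where 5.09% of all genes were. *Tgif1* then had a level of 0.190 against 0.370 and 0.340, lower by 1.94 and 1.79 times, and its direction was the opposite of that over all cells. *Smad7* was lower by 1.53 and 2.08 times, and *Ski*, at 1.49 and 1.87 times, was no longer called.

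Among TGFβR-KO clusters, genes induced by tissue dissociation were highest in the same 2 clusters as *Tgif1*, though in the opposite order. The 16 genes of that list, *Fos*, *Jun* and heat shock genes among them, summed to a level of 408 in pre-tumorigenic and 167 in tumorigenic TGFβR-KO cells and to 28.2 to 61.2 in the other TGFβR-KO clusters. The authors characterized the pre-tumorigenic cluster by some of these genes, with *Jun*, *Fos*, *Dusp1* and *Dnajb1* among them, and read them as cellular stress. They named *Nr4a1*, also on the list, for the tumorigenic cluster. The sums thus restate in part what characterizes the clusters. In the pre-tumorigenic cluster the listed genes summed to 250 and 242 in the TGFβR-WT sets and to 223 in TGFβR-CA. In the other 3 compared clusters they summed to 31.3 to 44.9 in pooled TGFβR-WT cells. The pooled TGFβR-WT level of *Tgif1* was 0.137 in the pre-tumorigenic cluster, from 4 UMIs in 79 cells, and 0.284 to 0.589 in the other 3. Over all cells the sums were 75.8 in TGFβR-KO, 41.9 in TGFβR-CA, 42.7 in the larger and 69.8 in the smaller TGFβR-WT set. The part of the dissociation genes in the *Tgif1* result was not tested.

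Single cells of TGFβR-KO held fewer of the 7 genes at once. The mean number of members detected per cell was 0.810 in TGFβR-KO, 1.60 in TGFβR-CA, 1.45 in the larger and 2.07 in the smaller TGFβR-WT set. At least 3 members were found in 4.20% of TGFβR-KO cells, 21.7% of TGFβR-CA cells and 17.9% and 39.6% of the larger and smaller TGFβR-WT sets. None was found in 44.5% of TGFβR-KO cells against 15.1% to 21.3% in the other sets.

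Over all clusters, *Skil*, *Ldlrad4*, *Smurf2* and *Smad7* were found more often in the few TGFβR-KO cells with a *Pmepa1* UMI than in those without. *Skil* was found in 25.6% (16.8 to 36.1) of the 86 cells with *Pmepa1* and in 9.42% (8.37 to 10.5) of the 2889 without. *Ldlrad4* was found in 17.4% (10.1 to 27.1) and 4.88% (4.12 to 5.73), *Smurf2* in 22.1% (13.9 to 32.3) and 7.68% (6.74 to 8.72), and *Smad7* in 33.7% (23.9 to 44.7) and 15.4% (14.1 to 16.8). These 4 intervals did not overlap, while those of *Ski* and *Tgif1* did. Outside the members, the intervals of *Nt5e* overlapped, at 20.9% (12.9 to 31.0) and 16.1% (14.8 to 17.5). Those of *Tgfbr1* also did, at 14.0% (7.42 to 23.1) and 7.58% (6.64 to 8.61). The share of all genes without overlap was not counted in any set, so the count of members has no reference. By cluster, *Pmepa1* was found in 0.554% of tumorigenic to 5.03% of activated TGFβR-KO cells. *Smad7* was found in 3.28% of TR-TFH to 26.9% of tumorigenic TGFβR-KO cells. The part of the cluster mix in the shares with and without *Pmepa1* was not tested in any set. The median numbers of detected genes after the correction were 1502 and 1488, and the share with *Tgfbr2* was 44.2% (33.5 to 55.3) and 40.3% (38.5 to 42.1).

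In the other sets the shares of *Ldlrad4* and *Smurf2* in cells with and without *Pmepa1* had overlapping intervals. In TGFβR-CA, *Ldlrad4* was found in 29.6% and 26.9% and *Smurf2* in 18.1% and 21.0% of cells with and without *Pmepa1*. *Skil* was more frequent in cells with *Pmepa1* in TGFβR-CA (36.7%, 30.4 to 43.4, against 26.8%, 23.9 to 29.9) and in the smaller TGFβR-WT set (54.3%, 43.7 to 64.6, against 32.4%, 26.0 to 39.2), again without overlap. In the larger TGFβR-WT set the shares of *Ldlrad4* were 23.7% and 18.2% and those of *Smurf2* 15.8% and 17.7%. *Smad7* was found in 31.4% and 18.9% of TGFβR-CA cells with and without *Pmepa1*, and in 42 of 94 and 51 of 204 cells of the smaller TGFβR-WT set, without overlap of the intervals in either set. Cells with *Pmepa1* had more detected genes in these sets, with medians of 1628 against 1537.5 in TGFβR-CA and 1784 against 1610 in the smaller TGFβR-WT set. Cells are not replicates, so these shares describe the sets, and the difference between sets was not tested.

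**Figure D5:**
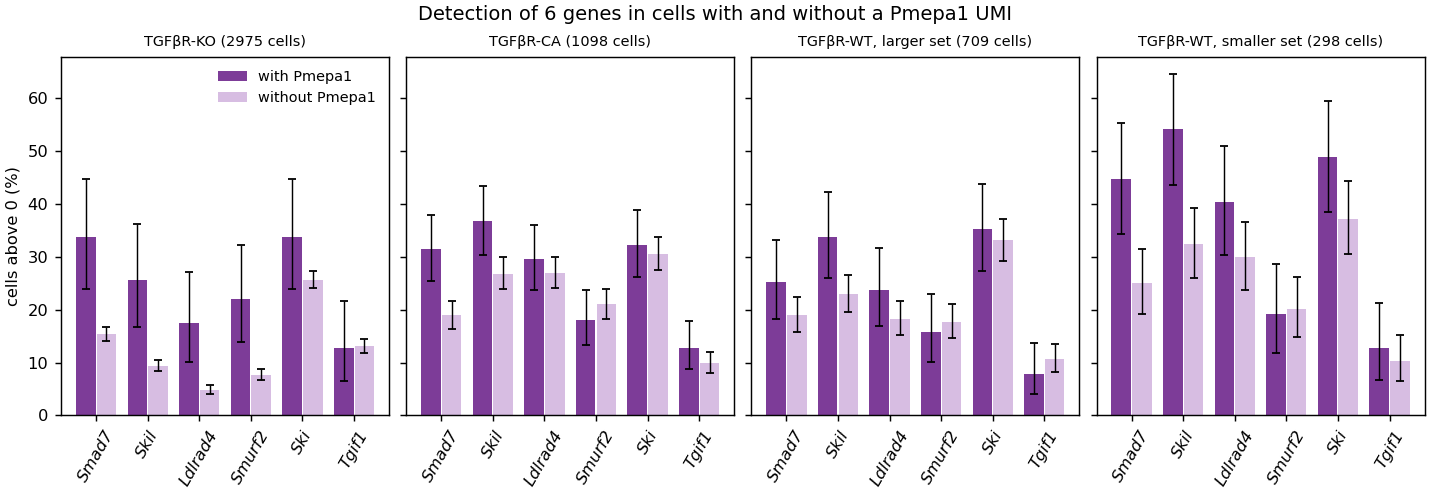
Percentage of cells above 0 for 6 genes in cells with (dark) and without (light) a *Pmepa1* UMI, by set, with exact 95% Clopper-Pearson intervals for counting error. In TGFβR-KO, *Skil*, *Ldlrad4*, *Smurf2* and *Smad7* are more frequent in the 86 cells with *Pmepa1*, whereas *Smurf2* and *Ldlrad4* have overlapping intervals in the other 3 sets. Cells of all clusters are included, and the share of all genes without overlap was not counted.

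Over the 21 groups of at least 30 cells that set and cluster define, the members most alike in log2(level + 0.1) were *Skil* and *Pmepa1* (Pearson's r = 0.88), *Pmepa1* and *Ldlrad4* (0.87), *Skil* and *Ldlrad4* (0.84) and *Ski* and *Smurf2* (0.83). *Tgif1* had r between -0.12 and 0.24 with the other members. The groups share libraries and the common depth, so these values describe the groups.

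Among all genes, those most like *Ldlrad4* were *Timp2* (r = 0.94), *Nt5e*, *Prkch*, *Ncmap* and *Tma7* (0.90). Those most like *Pmepa1* were *Arhgap39* (0.90), *Ncmap*, *Lrba*, *Tma7* and *Skil* (0.88), and those most like *Skil* were *Bmpr2* (0.90), *Pmepa1*, *Prkch*, *Nfkb1* and *Kdm1a* (0.85). *Ncmap* and *Tma7* thus appeared beside both *Pmepa1* and *Ldlrad4*, and *Prkch* beside both *Ldlrad4* and *Skil*. *Smurf2* was most like *Ssh2* (0.91), *Trim35*, *Nav2*, *Ehmt1* and *Lax1* (0.87). *Ski* was most like *Fam169b* (0.89), *1110034G24Rik*, *Fgd3*, *Smurf2* and *Pitpnc1* (0.83). *Smad7* was most like *Hlf* (0.88), *Gm2a*, *Aqp3*, *Clint1* and *Osgin1* (0.85). *Tgif1* was most like *Areg* (0.92), an EGF receptor ligand, and *Slc3a2*, *Kdm6b*, *Tob2* and *Zc3h12a* (0.81).

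Of 84 other genes of the pathway in 7 lists, 74 were in the table and 58 had at least 200 corrected UMIs. In TGFβR-KO, 6 of the 58 were called lower and 10 higher, beside the 5.43% and 2.94% of all genes, and with equal weight to the 4 clusters 5 were called lower and 6 higher. In TGFβR-CA, 6 were called lower and 0 higher, beside 2.75% and 1.26% of all genes. Of the 5 SMADs tested 0 were called in either genotype, and *Smad3* was at 0.324 in TGFβR-KO against 0.279 and 0.214, and *Smad4* at 0.783 against 0.818 and 0.890. Of the 11 ubiquitin ligases and proteases 0 were called, and *Smurf1*, the paralogue of *Smurf2*, was at 0.125 against 0.172 and 0.181.

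Of the 6 receptors and ligands tested, 3 were called lower in TGFβR-KO. *Tgfbr3*, the co-receptor betaglycan, was at 0.0331 in TGFβR-KO, 0.278 in TGFβR-CA, 0.263 in the larger and 0.256 in the smaller TGFβR-WT set. *Tgfbr1* was at 0.219 in TGFβR-KO, and *Bmpr2*, a type II receptor for BMPs, at 0.0531 against 0.132 and 0.231. *Tgfb1*, the ligand, was at 1.13 in TGFβR-KO against 1.08 and 2.25 and was not called.

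Of 13 co-repressors and SMAD partners, 1 was called higher in TGFβR-KO, *Zeb2*, at 0.222 against 0.144 and 0.0495, and 1 was called lower in TGFβR-CA, *Runx3*, at 0.653 against 1.06 and 1.41. *Tgif2*, the paralogue of *Tgif1*, was at 0.136 in TGFβR-KO against 0.104 and 0.132. Of the 10 other inhibitors and adaptors, *Zfyve16* and *Eid2* were called lower and *Furin* higher in TGFβR-KO, while *Furin* and *Tob1* were called lower in TGFβR-CA. *Furin*, the protease that processes the TGFβ precursor, was at 8.24 in TGFβR-KO against 4.15 and 3.51.

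Of the 5 tested genes that TGFβ is known to induce, *Nt5e* (CD73) was called lower in TGFβR-KO, at 0.513 against 2.24 and 2.22, and *Cdkn1a* and *Junb* were called higher. *Itgae*, an integrin of intraepithelial T cells, was called lower in TGFβR-CA, at 0.0844 against 0.156 and 0.635. *Junb* is also on the list of dissociation genes. Of the 8 tested genes that TGFβ is known to repress in T cells, 6 were called higher in TGFβR-KO, and 2 were called lower in TGFβR-CA. *Ifng* had a level of 4.26 in TGFβR-KO against 0.571 and 0.709, and of 0.313 in TGFβR-CA. *Tbx21*, which encodes T-BET, was at 0.287 against 0.0519 and 0.0577, and *Klf2* at 6.50 against 1.84 and 1.10. *Gzma* was at 0.123 in TGFβR-CA against 0.898 and 0.923. The median log2 ratio in TGFβR-KO to pooled TGFβR-WT cells was 1.43 over this list and -0.59 over the induced genes. All these levels are over all cells. The authors named *Ifng*, *Gzma* and *Klf2* among genes of the tumorigenic, CTL and migratory clusters, respectively. These clusters held 12.1%, 10.8% and 27.9% of TGFβR-KO cells and 0.497%, 1.29% and 8.84% of pooled TGFβR-WT cells. The part of this cluster mix in the differences was not tested.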

How the data were processed

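YFP+CD4+ T cells of 4 samples were profiled with 10x 3′ chemistry. The authors aligned and counted the reads on mm10 (Cell Ranger 3.1.0 in the submitters' processing notes), filtered cells on detected genes and mitochondrial UMIs, normalized with SCTransform, integrated and clustered with Seurat, and took out γδ T and epithelial cells. The deposited table, 5080 cells with a cluster name each, is on a natural log scale: ln(1 + UMIs), the UMIs having been corrected by the authors to a common depth. Undoing the log gave whole numbers, within 1e-06, for every value above 0. They are not raw counts, and the original depth of a cell is lost.

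Corrected UMIs were summed by set and by cluster with Python 3.11.15, numpy 2.4.6, scipy 1.17.1 and pandas 2.3.3. Calls were by size, a ratio of at least 1.5 against both TGFβR-WT sets, over genes with at least 200 corrected UMIs. A set at 0 counted as passed for a higher call, and its ratio was printed with the limit of 3 counts. Intervals of ratios condition on the sum of both counts. The 7 genes, the pathway lists and the tests were chosen with earlier results of these data known. Named genes are the 7 members, up to 3 called genes per list with the largest ratio and list genes with a described role, and the 5 genes most like each member by Pearson's r of log2(level + 0.1). Alternatives left out sets, doublets (Scrublet in scanpy 1.11.5, 43 cells), 32 cells with shared barcodes or 3 cells above 5% mitochondrial UMIs, or changed the weighting, scale, ratio or minimum. A new clustering without the members (3000 genes, 10 dimensions, leidenalg 0.10.2) gave 8 clusters, 3 with at least 20 cells in every set.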

Additional observations from a re-analysis of the deposited data

Results flagged for a closer look

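Within a genotype, 2 genes were past 1.5 times in opposite directions in different clusters, and the difference between clusters was not tested in either case. *Tgif1* in TGFβR-KO had a log2 ratio to pooled TGFβR-WT cells of 3.18 in the pre-tumorigenic cluster, where it was called higher, and of -1.61 in activated and -0.69 in TR-TFH cells, where it was called lower. The TGFβR-WT value in the pre-tumorigenic cluster rests on 4 UMIs. That of the smaller TGFβR-WT set in activated cells also rests on 4 UMIs, so both directions rest on few counts. With the new clustering made without the members, *Tgif1* was called lower in 2 of 3 clusters and higher in 0.

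*Ski* in TGFβR-CA had a log2 ratio of 0.63 in the pre-tumorigenic cluster and of -0.68 in activated cells. The pooled TGFβR-WT level in the pre-tumorigenic cluster came from 16 *Ski* UMIs, and the ratio of 1.55 there had a counting interval of 0.805 to 3.08.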

How the results depend on the processing

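With 1 sample each of TGFβR-KO and TGFβR-CA, and TGFβR-WT cells not tied to their 2 samples, no p-value was given, and UMIs of 1 cell are not independent, so the counting intervals are too narrow for a comparison of mice. No pairing by batch was possible because no label ties the TGFβR-WT sets to the batch of TGFβR-KO or of TGFβR-CA. Each genotype was thus set against TGFβR-WT cells of both batches. The number of members called lower in TGFβR-KO was 4 to 6 under the alternatives against 5, and *Pmepa1*, *Ldlrad4*, *Skil* and *Smurf2* were called lower under each of them, whereas *Ski* lost its call with equal weight to clusters, by log values, by the share of cells, at a ratio of 2 and without the tumorigenic and pre-tumorigenic cells. Leaving out the larger TGFβR-WT set gave 1 member higher in TGFβR-KO (*Tgif1*) and 2 lower in TGFβR-CA, and calling differences of 25% gave 1 higher in TGFβR-KO, in place of 0. The 6 pathway genes lower in TGFβR-KO became 13 at a difference of 25%, 3 at a ratio of 2 and 3 with at least 500 corrected UMIs, and the 10 higher became 6 at a ratio of 2 and 6 with equal weight to clusters. In TGFβR-CA the 6 lower became 13 at a difference of 25% and 2 at a ratio of 2, and 2 were higher with at least 50 corrected UMIs. Of all genes, 16.7% and 10.9% were lower in TGFβR-KO and TGFβR-CA at a difference of 25%, and 1.60% and 0.601% at a ratio of 2. With the new clusters 76.2% of gene and cluster pairs were lower in TGFβR-KO, against 85.7%, and *Smad7* was called in 1 of 3 clusters. Equal weight to the new clusters turned the log2 ratio of *Tgif1* in TGFβR-KO to -0.68, against 0.55 over all cells, without a call in either. A ratio of 2 for these pairs (67.9% lower), and leaving out the tumorigenic and pre-tumorigenic cells, were added after the data were seen.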
